A study of Homo sapiens with 4 samples.

Results

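MCF12A is a human mammary epithelial cell line that is not tumorigenic, and its unedited, wild-type cells are described here. They were chosen by their genotype label, which 2 of the 4 samples of the series carry. The table of the series gives each of them a value for 16811 genes. The series was made to compare these cells with MCF12A cells edited at C1orf132, a long noncoding RNA locus, and the edited cells enter no comparison here. Both wild-type samples were biological replicates of one line, carried no edit, and were grown in DMEM/F12 with horse serum, EGF, hydrocortisone, insulin, cholera toxin and antibiotics. Poly(A) RNA was read from one end, over 75 bases. The source label calls it a breast cancer line, which goes against its usual description. A line kept in culture for many passages in added growth factors is a model of cultured mammary epithelium and not of the cells as they sit in the gland.

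The ducts of the mammary gland have an inner luminal layer, which makes milk and carries the receptors for oestrogen and progesterone, and an outer basal layer, which rests on the basement membrane and contracts. Basal cells are known for keratins 5, 14 and 17, the transcription factor p63 and hemidesmosomes, the plaques that fix keratin filaments to laminin. Luminal cells are known for the simple keratins 7, 8, 18 and 19 and for the transcription factors GATA3, FOXA1 and ESR1.

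How the values in this table were normalized is not given in the sources used here. They were taken as a signal scaled for transcript length and library, an inference from low values of genes with a single transcript, and levels of different genes are set side by side on that assumption. The values summed to 1604212 in replicate 1 and 1444644 in replicate 2. From genes with a single transcript, 1 read on a transcript of 1 kb was estimated to be worth 0.126 in replicate 1 and 0.116 in replicate 2, which would give about 29100000 and 29200000 reads over the 12297 genes with a known length. At that step, only 21.1% of 123 low values in replicate 1 and 18.9% of 111 in replicate 2 were whole reads, within 0.03 of a read, against medians of 5.26% and 5.56% over all steps tried, and the same search found 2.01 times the true step in 1 of 3 simulations with mostly wrong lengths. The depth is therefore known to no better than a factor of about 2.

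Of the 16811 genes, 16042 had a mean of at least 1, 9633 (57.3%) a mean of at least 10, 2209 (13.1%) a mean of at least 100 and 204 (1.21%) a mean of at least 1000. The median of the gene means was 14.4. The level of 10, used below to count a gene among those clearly above the low end of the table, was reached in both libraries by 9163 genes. A gene could be listed through an edited library alone, and 36 genes were at 0 in both wild-type libraries. The lowest sum of a row over all 4 libraries was 2.15, so a gene with no row in the table may still have been transcribed at a low level. Genes were matched by symbol, and some had a row only under an older symbol. A missing row can therefore also come from the name used, and is not by itself a measure of level.

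**Figure D1:**
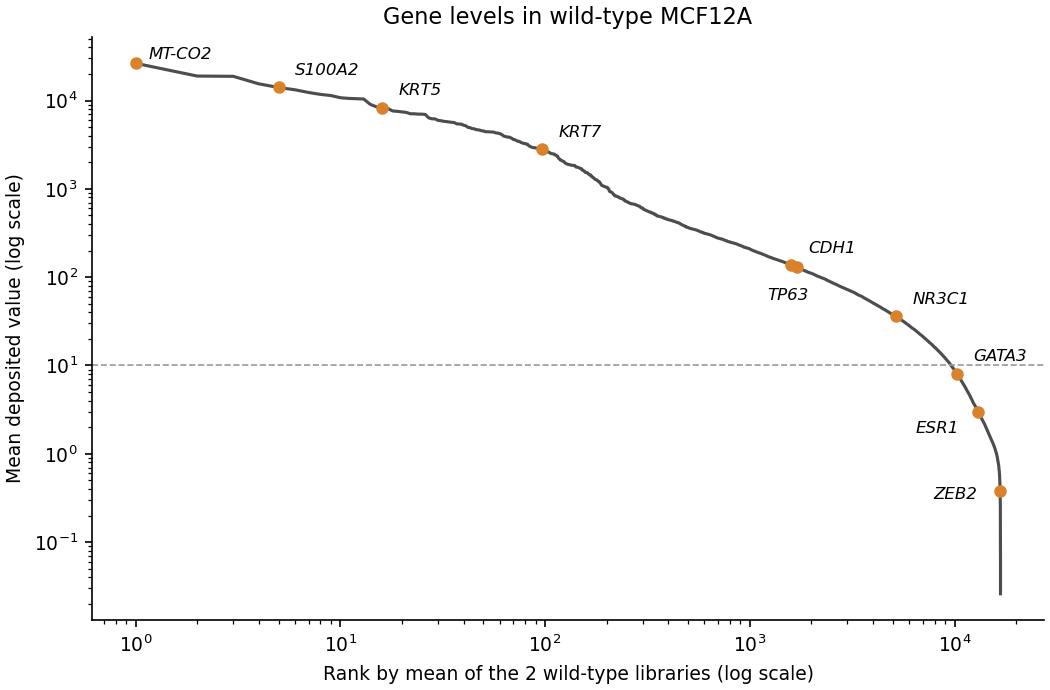
Mean deposited value of each gene in the 2 wild-type libraries (vertical, log scale) against its rank (horizontal, log scale), with named genes as points, a dashed line at a mean of 10, and the 36 genes at 0 not drawn. The curve starts at MT-CO2 with a mean of 26401 and crosses 10 after 9633 genes, with KRT5 at rank 16 and ESR1 at rank 13068.

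The summed signal was concentrated in few genes. The 10 highest genes of each library took 9.64% of the total in replicate 1 and 11.2% in replicate 2. The 100 highest took 38.5% and 38.9%, and the 1000 highest took 69.96% and 69.1%. Genes of translation and of the mitochondrial genome filled most of the top. Of the 25 genes with the highest mean, 11 encoded ribosomal proteins and 8 were mitochondrially encoded. The 85 ribosomal protein genes together held 21.8% of the signal in replicate 1 and 19.7% in replicate 2, a mean of 20.7% ± 1.43 (SD, n = 2), and 58 of them were among the 100 highest genes. The 37 mitochondrially encoded genes held 9.13% and 12.2%.

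MT-CO2, a subunit of cytochrome c oxidase, was the highest gene, with 24637 in replicate 1 and 28166 in replicate 2. MT-CO3 and MT-CO1, subunits of the same complex, read 16863 and 20980, and 11544 and 14924. MT-ATP6 of the ATP synthase read 17525 and 20051. All of these were higher in replicate 2. MT-ND4 of complex I and MT-CYB of complex III followed with means of 10757 and 8484. MT-ATP8 (mean 11384) overlaps MT-ATP6, and MT-ND4L (mean 10491) overlaps MT-ND4, so the reads of either pair may have been split by the counting. RPS24 led the ribosomal proteins with 11238 and 9581, before RPL8 with 9663 and 8436, and the order of these 2 genes held in both libraries while their ranges overlapped. RPL10, RPL4, RPS27, RPS6, RPS19, RPL39, RPS2, RPL13A and RPS3 also stood among the 25 highest, with means from 7009 to 8163. Ribosomal protein genes have many processed pseudogenes, so their single values are uncertain.

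The other 6 of the 25 highest genes were EEF1A1, S100A2, FTH1, TPT1, PABPC1 and KRT5. EEF1A1, the elongation factor that brings aminoacyl-tRNA to the ribosome, read 17502 in replicate 1 and 13377 in replicate 2. PABPC1, which binds poly(A) tails, read 12487 and 8646, and TPT1, the translationally controlled tumour protein, read 12598 and 10867. S100A2, a calcium-binding protein of basal and squamous epithelia, came next after EEF1A1 among genes of the nucleus, with 13380 and 14704. FTH1, the ferritin heavy chain that stores iron, differed more, with 16855 and 7807. KRT5, the basal type II keratin, was the highest keratin with 4590 and 11914, which placed it 16th by mean.

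Below these, ACTB, KRT17, ALDOA, ANXA2, S100A9, TMSB10, RP11-572P18.1 and S100A6 were the next highest genes outside the ribosomal and mitochondrial groups and RACK1, a ribosome-bound protein. ANXA2, a calcium-dependent membrane-binding protein, read 4620 and 4954. The actin-binding TMSB10 read 4325 and 4223, also close. GSTP1, a glutathione transferase, read 3441 and 3202, and B2M, the light chain of the class I antigen-presenting complex, 3246 and 3268. The 16 S100 genes with a row took 2.25% and 2.11% of the signal, and 14 of them had a mean of at least 10. S100A2 lies at chr1:153561108-153565844 (GRCh38), in the cluster that also holds S100A7, S100A8 and S100A9.

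For the start regions of these genes, RefSeq promoters (GRCh38.p14) were read, which matched 66 of the 100 highest genes and 9834 of the 16811. The 60 bases before the start are shown for 3 high genes with a TATA-type match and for S100A2, which has an AP-1 match instead. Capitals mark TATAA or ATAAA in the first 3 and the AP-1 motif in S100A2.
KRT5, chr12:52520395-52520454, minus strand: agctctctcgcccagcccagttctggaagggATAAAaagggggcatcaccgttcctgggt
EEF1A1, chr6:73521033-73521092, minus strand: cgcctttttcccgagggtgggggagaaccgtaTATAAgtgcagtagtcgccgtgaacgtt
ANXA2, chr15:60397987-60398046, minus strand: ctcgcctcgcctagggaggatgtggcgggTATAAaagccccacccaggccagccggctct
S100A2, chr1:153565845-153565904, minus strand: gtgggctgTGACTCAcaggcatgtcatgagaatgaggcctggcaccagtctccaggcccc

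The match began 29 bases before the start in KRT5, 28 in EEF1A1, 31 in ANXA2 and 52 in S100A2. TATAA or ATAAA, which overlap in TATAAA, was sought on the sense strand from 40 to 18 bases before the start. It was found in 15 of the 80 promoters of the 100 highest genes (18.8%), in 3.77% of the 10363 promoters of genes with a mean of at least 10, and in 6.11% of all 35116 promoters of the table. TGANTCA, whose reverse complement has the same form, was sought in the 250 bases before the start. It was found in 5.00% of the promoters of the 100 highest genes, in 4.22% of those of genes with a mean of at least 10 and in 6.57% of all promoters. Among the 19 promoters of the 11 matched basal genes, 5 held the TATA-type letters and 3 the AP-1 letters. The TATA-type letters were in 5 of 27 luminal promoters and 4 of 14 promoters of EGFR and ERK targets, and the AP-1 letters in 1 and 0 of these. Several promoters can belong to 1 gene, and a match is not a bound site.

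The lineage of the cells was read from a list of 24 basal and a list of 24 luminal mammary genes. Of the basal genes, 23 had a row, 22 had a mean of at least 10 and 19 a mean of at least 100. Of the luminal genes, 15 had a row, 9 had a mean of at least 10 and 6 a mean of at least 100. For comparison with these and the lists below, 57.3% of all listed genes reached 10 and 13.1% reached 100. The median of log2(value + 1) over the basal genes with a row exceeded that of the luminal genes by 3.62 in replicate 1 and 3.76 in replicate 2 (3.69 ± 0.10, SD, n = 2), which is 12.9-fold. No test was made of this or any other difference. The 6 genes taken as markers of the line all had a row, and KRT5, KRT14, TP63, CDH1, KRT8 and KRT18 each read above 80 in both libraries.

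**Figure D2:**
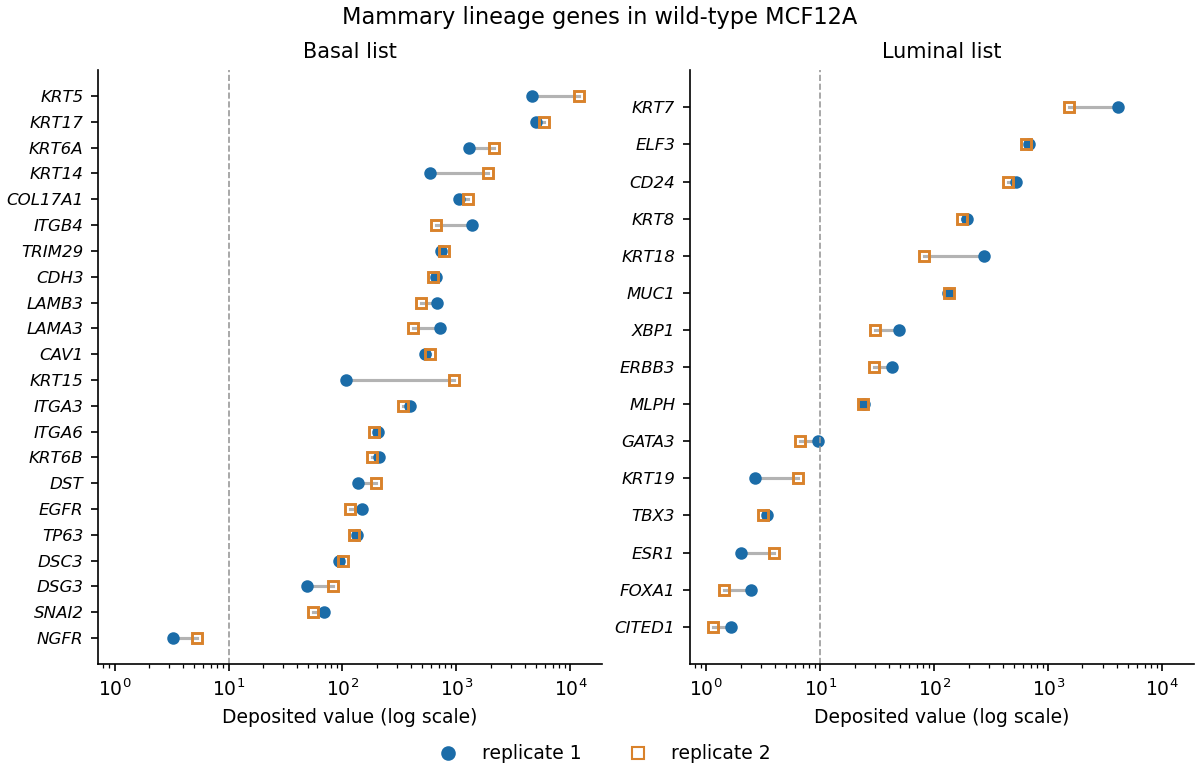
Deposited value (horizontal, log scale) of the basal and luminal list genes with a row (1 basal gene is not drawn), with circles for replicate 1, squares for replicate 2 and a dashed line at 10. All basal genes drawn but NGFR lie above 10 in both libraries, while 6 of the 15 luminal genes lie below it in both.

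The basal keratins KRT5 and KRT17 were the highest members in both libraries, while KRT15 and KRT6B ranked below COL17A1 and ITGB4 by mean. KRT17, a type I keratin, read 4947 in replicate 1 and 5828 in replicate 2. KRT6A, a keratin of wounded and proliferating epithelium, read 1281 and 2135, and KRT14, the partner of KRT5, read 585 and 1880. KRT15 was at 107 and 950. Replicate 2 was therefore higher for all of these, by 2.60-fold for KRT5, 3.21-fold for KRT14 and 8.92-fold for KRT15, and by less than 2-fold for KRT17 and KRT6A. KRT6B, a near copy of KRT6A, read 208 and 183. KRT6A, KRT6B and KRT6C, and KRT14, KRT16 and KRT17 with their pseudogenes, are close in sequence, so reads may have been exchanged among them.

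The genes of the hemidesmosome and its laminin were lower than KRT5 and KRT17 in both libraries. In replicate 1, ITGB4 was above KRT6A, and COL17A1, LAMA3 and LAMB3 were above KRT14. Several of these hemidesmosome and laminin genes differed between libraries in the direction opposite to KRT5. COL17A1, a transmembrane collagen of the plaque, read 1062 and 1268. ITGB4, the integrin chain that anchors to keratin, read 1378 and 660, and its partner ITGA6 read 206 and 188. LAMA3 and LAMB3, chains of laminin-332, read 718 and 412, and 678 and 490. ITGB4, LAMA3 and LAMB3 were all higher in replicate 1, opposite to KRT5, KRT14 and KRT15. TRIM29 and CDH3, the gene of P-cadherin, were close between libraries at 736 and 777, and 655 and 619.

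TP63, the transcription factor of basal and squamous epithelia (chr3:189596746-189897276, GRCh38), read 134 and 126 and ranked 1694 of all genes. SNAI2, a repressor found in basal cells, read 68.5 and 55.0. DSC3 and DSG3, desmosomal cadherins of stratified epithelium, read 92.8 and 101, and 49.3 and 83.3. The lowest listed member was NGFR at 3.24 and 5.27, and ID4 had no row. In the order of the 22 basal genes above 10, 5 of the 21 neighbouring pairs did not overlap between libraries, so most neighbours could not be ordered.

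Myoepithelial contraction genes were lower. Of 11, 7 had a row and all 7 had means above 10, led by TPM2 at 377 and 266 and CALD1 at 187 and 159. ACTA2, smooth muscle actin, read 48.7 and 52.9 and MYLK, the kinase of myosin light chain, 10.1 and 20.1. ACTG2, CNN1, MYH11 and OXTR had no row.

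The luminal list was uneven. KRT7, a simple keratin, ranked 97 with 4100 in replicate 1 and 1538 in replicate 2. ELF3, an epithelial ETS factor, read 681 and 633, and CD24, a cell surface glycoprotein, read 521 and 440. KRT8 and KRT18, which pair with each other, read 194 and 175, and 275 and 82.2, and MUC1 read 133 and 135. KRT7 and KRT18 were thus higher in replicate 1 by 2.67-fold and 3.34-fold, while KRT8 was close. The factors that define hormone-sensing luminal cells read below 10 in both libraries. GATA3 read 9.48 and 6.63, ESR1, the oestrogen receptor, 2.04 and 3.96, and FOXA1 2.46 and 1.44. KRT19 read 2.70 and 6.42. PGR, PRLR, SPDEF, TFF1, TFF3, AGR2, ANKRD30A and CLDN3 had no row.

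Of 11 luminal progenitor and milk genes, SLPI (437 and 399), LCN2 (509 and 164) and ALDH1A3 (234 and 117) had a row, and the caseins CSN1S1, CSN2 and CSN3, LALBA, LTF, PIGR, KIT and ELF5 had none. SLPI and LCN2 encode antimicrobial secreted proteins. ALDH1A3 makes retinoic acid.

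Over the sum of 11 keratins, the basal and stratified forms (KRT5, KRT6A, KRT6B, KRT14, KRT15, KRT16 and KRT17) made up 72.0% of the summed value in replicate 1 and 92.8% in replicate 2. The simple forms KRT7, KRT8, KRT18 and KRT19 made up the rest, 28.0% and 7.21%. These genes lie in the clusters on chromosome 12 and chromosome 17: KRT5 (chr12:52514575-52520394), KRT6A, KRT6B, KRT7, KRT8 and KRT18 on the first, and KRT13, KRT14, KRT15, KRT16, KRT17 and KRT19 on the second. Genes of the first cluster stood on both sides of the difference between libraries, KRT5 and KRT6A higher and KRT7 and KRT18 lower in replicate 2. All keratins took 1.04% and 1.74% of the signal.

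Squamous differentiation genes differed widely in level. Of 27 symbols, 2 of which name the same gene, 20 had a row. Of these 20, 9 had a mean of at least 10, against 57.3% of all listed genes. S100A7, CSTA (a protease inhibitor) and SERPINB5 (maspin) were highest, at 970 and 366, 578 and 516, and 213 and 274. KRT16 read 49.8 and 289 and KRT13 6.51 and 51.1, both higher in replicate 2. TGM1, the transglutaminase that crosslinks the cornified envelope, read 22.7 and 17.3, and its substrate IVL 2.99 and 10.5. KRT1, KRT4, FLG, SPRR3, CALML5 and loricrin had no row.

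General epithelial genes were present throughout. Of 28, 27 had a row, 22 had a mean of at least 10 (57.3% of all listed genes did), and MARVELD2 had no row. SPINT2, a protease inhibitor, was highest at 752 and 618. CDH1, the gene of E-cadherin (chr16:68737292-68835537, GRCh38), read 150 and 123, and EPCAM 57.6 and 27.8. ESRP1, the epithelial splicing regulator, read 262 and 229, and the desmosomal DSP 143 and 224. CLDN1, a tight junction protein, differed most at 188 and 32.7, and OVOL1 and OCLN were the lowest at about 2 to 3 in either library.

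Of 24 mesenchymal genes, 15 had a row. Of these 15, 9 had a mean of at least 10 and 3 a mean of at least 100, against 57.3% and 13.1% of all listed genes. FN1, fibronectin, read 645 and 314, and VIM, vimentin, 257 and 194. S100A4, a calcium-binding protein, read 171 and 205 and COL6A1 43.1 and 64.6. Among the other members with a mean of at least 10, COL5A1 read 26.4 and 52.6 and FAP 55.0 and 23.1. COL1A1 read 15.6 and 28.1 and COL6A2 8.33 and 15.4. By contrast, the EMT factors ZEB1 and ZEB2 read below 1 in both libraries, at 0.333 and 0.927 and at 0.299 and 0.456, as did CDH2, N-cadherin, at 0.429 and 0.0996. TWIST1 read 13.9 and 19.0 and SNAI1 3.81 and 2.02, and SNAI2, counted above with the basal genes, 68.5 and 55.0. COL1A2, COL3A1, LUM, PDGFRA, PDGFRB, POSTN, PRRX1, SPARC and THY1 had no row.

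Of 82 marker genes of blood, endothelium, fat, neurons and glia, striated muscle, liver, melanocytes, intestine, lung or thyroid, and germ cells or pluripotent cells, 11 had a row and 5 reached a mean of 10. None of the 10 neural genes and none of the 8 genes of intestine, lung and thyroid had a row. The listed genes were ITGAM (16.3 and 41.7) and CD14 (15.1 and 9.53) from blood, EGFL7 (43.5 and 34.99) from endothelium, FABP4 (1.26 and 25.9) and PLIN4 from fat, SERPINA1 (17.0 and 20.9) from liver, TNNT2 and MYH3 from muscle, PMEL and MITF from melanocytes, and POU5F1. FABP4 was 20.5-fold and ITGAM 2.56-fold higher in replicate 2. The value of FABP4 in replicate 1 stood for about 9 estimated reads, so its fold is uncertain. Defining markers such as PTPRC, PECAM1, CDH5, ALB, ADIPOQ, DES and SNAP25 had no row. The highest summed value of a lineage list was 51.2, for blood in replicate 2, against 29265 for the basal list in the same library.

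The medium holds EGF, hydrocortisone, insulin and cholera toxin, and the genes that receive them were examined. EGFR, the EGF receptor, read 148 and 116. NR3C1, the glucocorticoid receptor, read 28.4 and 43.4. IGF1R, which also binds insulin at high concentration, read 50.5 and 49.5, and the insulin receptor INSR only 3.83 and 2.48. GNAS, the stimulatory G protein that cholera toxin modifies, read 1438 and 1247. The order GNAS, EGFR, IGF1R, NR3C1 held without overlap between libraries. The 10 glucocorticoid target genes all had means above 10, from KLF9 at 15.5 and 14.0 to MT2A at 3275 and 1057. FKBP5, a chaperone of the receptor, read 104 and 148, and TSC22D3 153 and 131. ERRFI1, an inhibitor of EGFR, read 138 and 26.3.

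Receptor tyrosine kinases relay growth factor signals. Of 51, 27 had a row and 17 of these had a mean of at least 10, against 57.3% of all listed genes. DDR1, a collagen receptor, was highest with 410 in replicate 1 and 769 in replicate 2 and stood apart from the next, PTK7, at 180 and 211. EPHB4 (158 and 129), EGFR, RYK and MET (127 and 88.6) followed. In the EGFR family, ERBB2 read 81.0 and 67.0 and ERBB3 42.5 and 29.5, and ERBB4 had no row. Of the FGF receptors, FGFR1 read 25.1 and 22.4, FGFR2 13.0 and 15.8, FGFR3 8.99 and 24.8 and FGFR4 8.92 and 10.8. FGFR3 overlapped with both FGFR1 and FGFR2, while FGFR2 lay above FGFR4 in both libraries. KIT, ALK, RET, the 3 NTRK genes and the endothelial KDR, FLT1, FLT4, TEK and TIE1 had no row. Of the 16 neighbouring pairs above 10, 12 overlapped between the libraries.

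**Figure D3:**
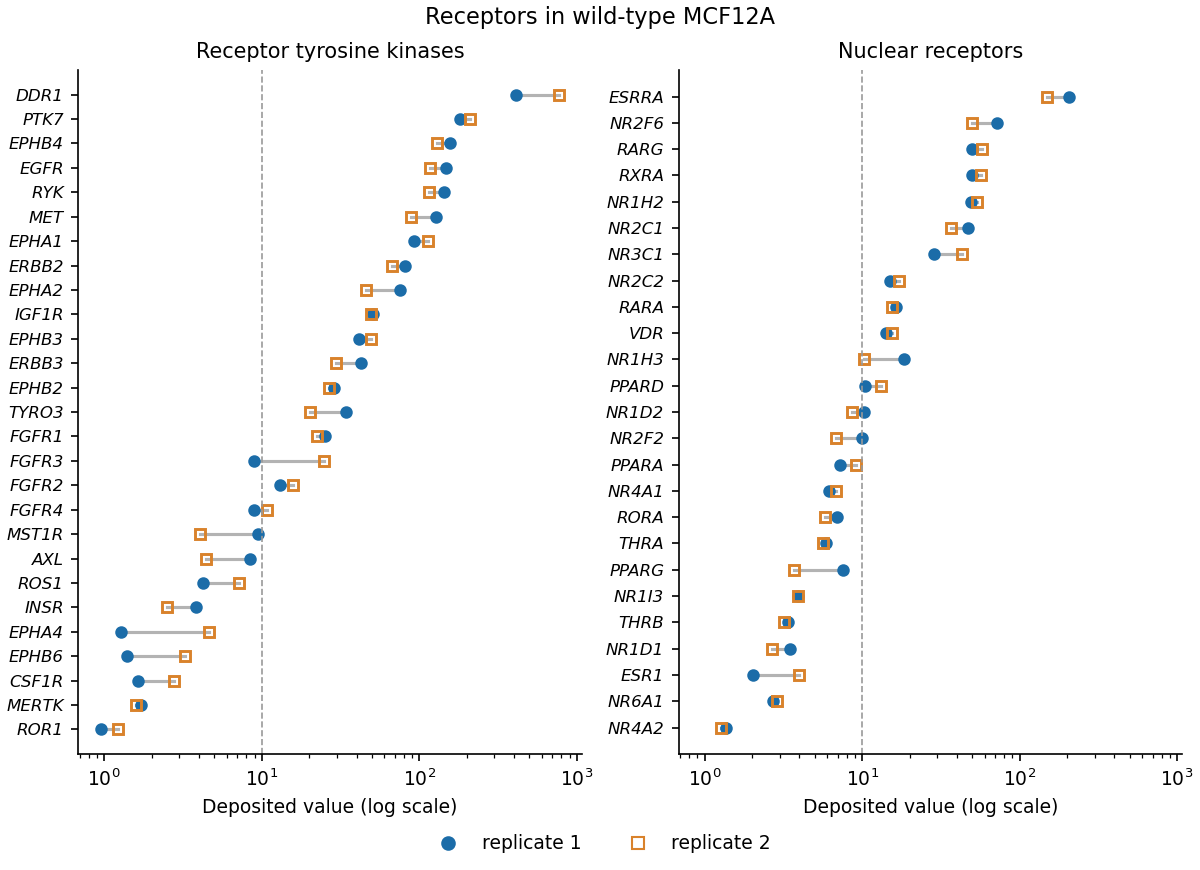
Deposited value (horizontal, log scale) of the 27 receptor tyrosine kinase genes and 25 nuclear receptor genes with a row, with circles for replicate 1, squares for replicate 2 and a dashed line at 10. DDR1 stands above all others on the left at 410 and 769, and ESRRA above all others on the right at 205 and 150.

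Nuclear receptors were lower. Of 48, 25 had a row. Of these 25, 12 had a mean of at least 10 and only 1 exceeded 100, against 57.3% and 13.1% of all listed genes. That gene was ESRRA, an orphan receptor of mitochondrial genes, at 205 and 150. NR2F6, RARG, RXRA and NR1H2 followed between 48.9 and 72.2. The vitamin D receptor VDR read 14.3 and 15.5 and RARA 16.4 and 15.6. The mineralocorticoid receptor NR3C2, ESR2, PGR, RARB and HNF4A had no row.

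Among 50 receptors of the TGF-beta family, Notch, Wnt and cytokines, 39 had a row. Of these 39, 24 had a mean of at least 10, against 57.3% of all listed genes. OSMR, the oncostatin M receptor, was highest at 156 and 138, before IFNGR1 at 139 and 131. NOTCH3 read 77.4 and 151 and NOTCH1 78.5 and 119, while NOTCH4 had no row. TGFBR1 and TGFBR2 read 67.8 and 25.2, and 59.6 and 28.5, both over 2-fold lower in replicate 2 as deposited. With both libraries scaled to the same total, only TGFBR1 was. FZD6 was the highest Frizzled gene at 75.5 and 85.4. CXCR4, a chemokine receptor, was the lowest at 0.170 and 0, and LGR5, FZD4, FZD10 and CCR7 had no row.

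Of 113 transcription factors, 101 had a row. Of these 101, 74 had a mean of at least 10 and 25 a mean of at least 100, against 57.3% and 13.1% of all listed genes. YBX1 (1136 and 1110) and ELF3 stood first in both libraries. ID1 (478 and 615), HMGA1 (672 and 312), HIF1A (484 and 418) and ID3 (271 and 425) came next. The epithelial factors EHF, KLF5 and TFAP2A read 87.1 and 134, 102 and 103, and 96.3 and 86.4. GRHL2 read 26.0 and 26.2. Of the AP-1 family, JUNB (133 and 93.0) and FOSL2 (103 and 122) were highest, and FOS (33.4 and 18.3) and FOSL1 (26.1 and 7.76) were lower. SOX9 read 6.12 and 4.87, RUNX3 3.73 and 2.02, and SOX10, SOX2, TFAP2B, LEF1 and ELF5 had no row.

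Cell cycle genes were listed throughout. All 29 genes of S phase and G2/M had a row, and 28 had a mean of at least 10. CDK1 was highest at 359 and 323 and MKI67 read 101 and 145. TOP2A read 182 and 179 and PCNA 117 and 139. CCNE2 was lowest at 7.49 and 9.23. Of 18 G1 regulators and tumour suppressors, 16 had a row and 14 a mean of at least 10, with CDKN1A, an inhibitor of cyclin-dependent kinases, at 198 and 320, MYC at 179 and 119 and RB1 at 67.3 and 78.9. TERT, the telomerase subunit, read 0.935 and 0.193. CDKN2A and CDKN2B had no row.

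Most genes differed little between the 2 libraries. Over the 9633 genes with a mean of at least 10, Pearson's r of log2(value + 1) was 0.965 and Spearman's rho 0.953, across genes that share the libraries and are not independent replicates. The difference of log2(value + 1), replicate 2 minus replicate 1, had a median of -0.11 and an SD of 0.44. Of these genes, 86.9% were within 1.5-fold. More than 2-fold apart were 140 genes higher in replicate 2 (1.45%) and 156 lower in replicate 2 (1.62%). With both libraries scaled to the same total, 210 of these 9633 genes were higher and 104 lower, and with the median difference set to 0, 191 and 114, so the direction of the balance depended on the scaling. The share past 2-fold was 7.35% among the 204 genes with a mean of at least 1000 and 3.86% among the 3836 genes from 10 to 30.

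**Figure D4:**
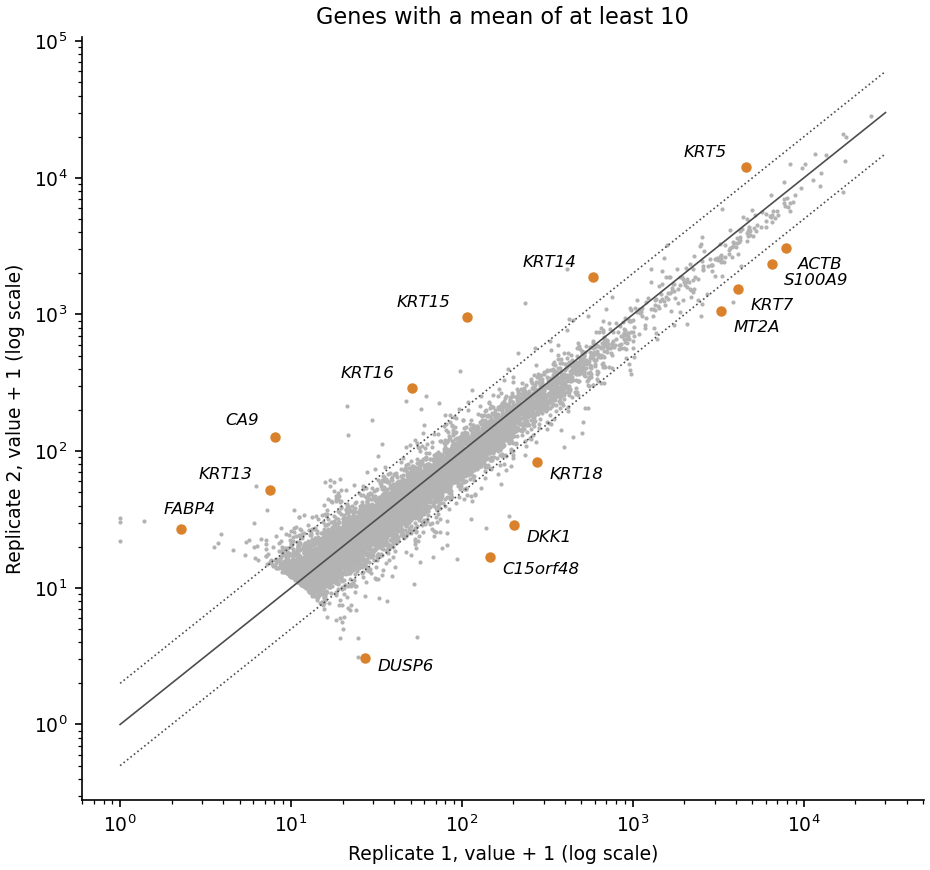
Value + 1 in replicate 2 (vertical) against replicate 1 (horizontal), both on log scales, for the 9633 genes with a mean of at least 10, with lines at equality (solid) and at 2-fold (dotted). KRT5, KRT14, KRT15, KRT16, KRT13, FABP4 and CA9 lie above the upper dotted line, and DUSP6, C15orf48, DKK1, KRT7, KRT18, ACTB, S100A9 and MT2A below the lower.

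The 5 genes furthest below in replicate 2 were CTB-63M22.1 at 53.7 and 3.37, DUSP6 at 26.0 and 2.05, C15orf48 at 144 and 15.8, HSD17B2 at 23.6 and 2.14 and DKK1 at 202 and 27.7. DUSP6 is the ERK phosphatase, DKK1 a secreted Wnt inhibitor and HSD17B2 an enzyme that oxidises sex steroids. The 5 furthest above were RF01955 at 0 and 31.2, RP11-251A15.5 at 0 and 29.2, SULT1A4 at 0.372 and 29.8, SKIV2L at 0 and 21.0 and CA9 at 7.07 and 125. CA9 is a carbonic anhydrase induced by low oxygen, SKIV2L an RNA helicase and SULT1A4 a sulfotransferase with a near-identical copy, SULT1A3. RF01955, RP11-251A15.5 and SKIV2L were listed at 0 in replicate 1, so no fold is given. Next in this direction came FABP4, AKR1B10 (20.4 and 213), ABR (5.24 and 54.3) and then KRT15, which was over 8-fold higher in replicate 2.

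Of the 12 lists in the plot of differences by list, the EGFR and ERK target genes stood furthest from the median of all genes. Of 20, 17 had a row and 9 a mean of at least 10, and all 9 were lower in replicate 2 with a median difference of -1.22 on the log2 scale (62.9% of all 9633 genes were lower), also when both libraries were scaled to the same total (-1.08). Of the 9, 6 were over 2-fold lower, against 1.62% of all 9633 genes. The ERK phosphatases DUSP4, DUSP5 and DUSP6, and the ETS factors ETV4 and ETV5, which had means just under 10, read 18.4 and 5.04, 20.4 and 6.13, 26.0 and 2.05, 16.3 and 3.70, and 17.2 and 1.85. EGR1 read 36.2 and 15.0. The ligands AREG (57.4 and 37.2), TGFA (30.4 and 22.1) and HBEGF (17.2 and 11.98) differed less, and EGF, IER3 and SPRY1 had no row.

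Other lists lay nearer the median of all genes, which was -0.11. Of all 9633 genes, 1.45% were over 2-fold higher and 1.62% over 2-fold lower in replicate 2 as deposited. The basal genes above 10 had a median difference of -0.0011, with 3 over 2-fold higher in replicate 2 (KRT5, KRT14 and KRT15) and 1 lower (ITGB4). With the same total, the basal median was 0.15, against 0.04 for all genes, and ITGB4 was no longer over 2-fold lower. The luminal genes had a median of -0.24 and 2 over 2-fold lower, KRT7 and KRT18, and the S phase and G2/M genes a median of -0.23. Of the 9 luminal genes, 8 were lower in replicate 2 as deposited and 5 with the same total. The 12 keratins above 10 had a median of 0.49, with 5 over 2-fold higher and 3 lower. All 83 ribosomal protein genes above 10 were lower in replicate 2 as deposited, by a median of -0.29, and 76 were lower with the libraries scaled to the same total, against 62.9% and 44.7% of all 9633 genes. Of the 37 mitochondrially encoded genes, 21 were higher in replicate 2 as deposited and 26 with the same total, against 37.1% and 55.3% of all 9633 genes.

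**Figure D5:**
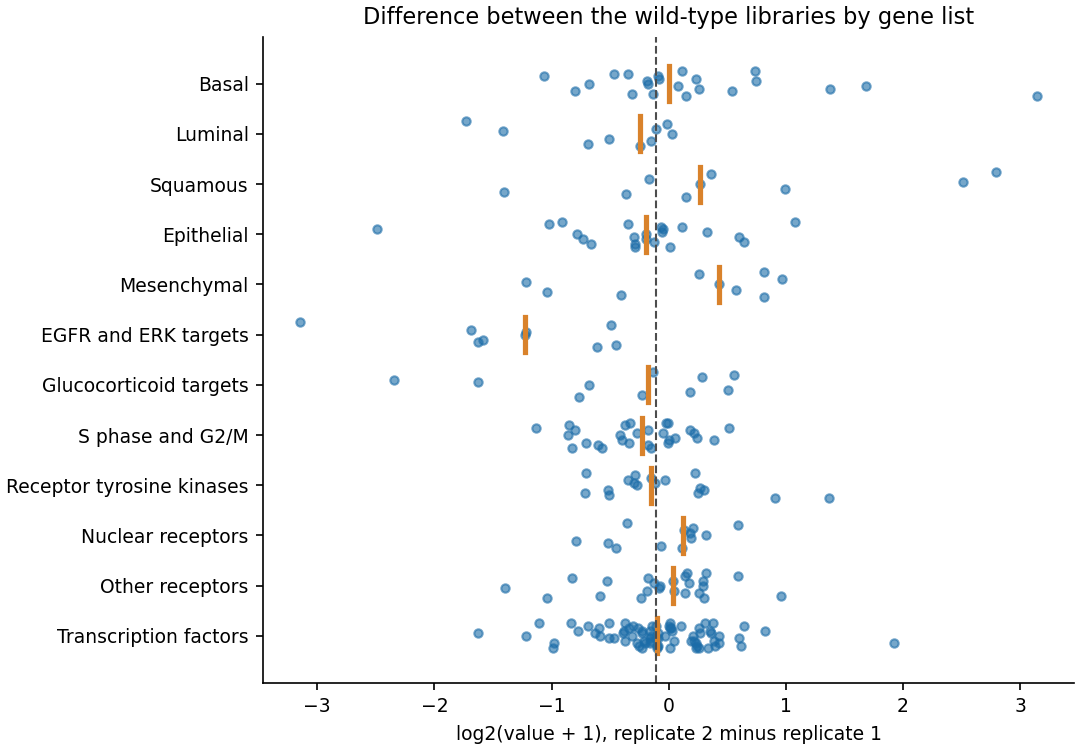
Difference of log2(value + 1), replicate 2 minus replicate 1 (horizontal), for each gene with a mean of at least 10 in 12 gene lists, with orange bars at list medians and a dashed line at the median of all 9633 genes (-0.11). The EGFR and ERK targets have the lowest median, -1.22, and all lie below the dashed line.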

How the data were processed

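RNA-seq of 2 wild-type MCF12A samples was analysed from a table of gene symbols. The values the authors deposited were treated as a signal scaled for transcript length and library, which was inferred from the values; they are not whole-number counts. The submitters' processing notes name Salmon, HISAT2 and hg38. Their roles, the annotation and the normalization are not given in the sources used here, and the library kit does not mark strand, so antisense and overlapping genes cannot be told apart. The step search was tested on simulated data over 1022 genes with 1 transcript: it recovered the step in 3 of 3 simulations with right lengths and in 2 of 3 with most lengths wrong. Its rule was changed once after this test, from the best step to the largest step close to the best, with the same estimate for both libraries. Intervals were not computed.

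Genes were ranked by the mean of both libraries, with a pseudocount of 1 on the log2 scale. Named were the 25 highest genes, the 5 largest differences each way with a mean of at least 10, and list members. Some further genes with high values or large differences were named by hand. Members and lists were chosen with earlier results of these data known. Some lists of the closing section were chosen after the differences between libraries had been seen. Edited libraries were used only for the lowest row sum. Transcript lengths came from GENCODE and positions and promoters from RefSeq (GRCh38.p14). C1orf132, CD34 and some members counted in the lists are not reported here by name. Python 3.11.15, numpy 2.4.6, pandas 2.3.3, scipy 1.17.1 and matplotlib 3.10.9 were used.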

Additional observations from a re-analysis of the deposited data

How the results depend on the processing

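The difference between the basal and luminal medians was 3.69 on the log2 scale. It was 3.96 with the PAM50 lists, 4.23 without the simple keratins, 2.59 with the myoepithelial genes added, 3.55 with a pseudocount of 5, and 6.68 with members that had no row counted at 0, an alternative added after seeing the data. Genes over 2-fold apart numbered 296 above a mean of 10, 891 above 1 and 105 above 50. Markers of other lineages numbered 11 above 1 and 5 above 10. The 100 highest genes took 38.7%, 34.9% without mitochondrially encoded genes, 34.2% without ribosomal protein genes and 30.6% of value times transcript length, added later. The ribosomal share of 20.7% became 23.2% without mitochondrially encoded genes and 12.3% of value times length. Each library alone gave 3.62 and 3.76 for the difference of medians, 21.8% and 19.7% for the ribosomal share, and 9570 and 9632 genes above 10, against 9633 by the mean of both. With the transcript lengths used by the authors not known, length-weighted shares are rough. No test was made on 2 libraries of 1 group. No paired analysis was possible because the edited libraries enter no comparison here.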

Other observations

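Further groups were listed after the values and the differences between the libraries had been seen, so their counts are descriptions only. Of all 9633 genes with a mean of at least 10, 62.9% were lower in replicate 2 as deposited and 44.7% with the libraries scaled to the same total. A group of antimicrobial and inflammatory genes was listed with its high values already seen. Of 22, 19 had a row and 12 of these had a mean of at least 100, against 13.1% of all listed genes. S100A9 and S100A8, which form calprotectin, read 6494 and 2350, and 2062 and 853. SAA1, an acute phase protein, read 4275 and 2246, C3, the central complement component, 3077 and 2547, and SOD2, the mitochondrial superoxide dismutase, 2277 and 1529. Of the 17 genes with a mean of at least 10, 14 (82.4%) were lower in replicate 2 as deposited and 13 with the same total. SAA1 and SAA2 are near copies, so their single values are uncertain.

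Genes known to respond to low oxygen, glycolytic enzymes included, leaned the other way. Of the 21 with a mean of at least 10, 16 were higher in replicate 2 as deposited and 18 with the same total, against 37.1% and 55.3% of all genes. CA9 read 7.07 and 125, SLC2A1, a glucose transporter, 186 and 398, VEGFA 127 and 212, EGLN3 34.4 and 75.4, and NDRG1 1518 and 2569. ADM, another such gene, read 71.4 and 42.9, and EGLN1 50.5 and 50.9.

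Of 22 actin cytoskeleton genes with a mean of at least 10, 18 (81.8%) were lower in replicate 2 as deposited and 14 (63.6%) with the same total. ACTB and ACTG1, the cytoplasmic actins, read 7813 and 3076, and 3836 and 1239, and THBS1, a matrix glycoprotein, 92.0 and 15.3. TAGLN went against this, at 58.4 and 136. Of 9 hemidesmosome and laminin genes, 6 were lower in replicate 2 as deposited and 5 with the same total (66.7% and 55.6%). The metallothioneins MT2A and MT1E read 3275 and 1057, and 904 and 483, while MT1X read 231 and 290.

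Outside any list, 4 more genes, all higher in replicate 2, were picked by hand after the values had been seen. They were not the largest differences. AKR1B10, which was not picked, differed more, at 20.4 and 213, and ANGPTL4 went the other way, at 51.3 and 9.69. CASP14 read 28.6 and 167, LY6D 96.8 and 382, FABP5 232 and 1205 and CRABP2, a retinoic acid binding protein, 32.9 and 113. The causes of these differences were not tested.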
